A study of Rattus norvegicus with 8 samples.

Results

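The scavenger receptors described here are 10 genes, chosen by name from the receptor families that take up modified lipoproteins, dead cells, haemoglobin and foreign particles. They are 10 of the 23487 genes in the deposited count table, and each was found there by its symbol. The study compared peritoneal macrophages regenerated after exposure to a carbon nanotube that causes mesothelioma in the rat (CNT-7) and after one that does not (CNT-T). Female Wistar rats, 8 weeks old, received 2 mg of particles by intraperitoneal injection and were sacrificed 15 days later. CNT-7 is the needle-like multi-walled nanotube MWCNT-XNRI-7 and CNT-T is a tangled nanotube. Peritoneal cells were sorted by flow cytometry with antibodies against CD11b/c and His48, and the RNA of the sorted macrophages was sequenced in 4 rats per particle. Untreated rats were not analysed here, so each difference is between both particles and not from a resting state.

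The labels number the CNT-7 rats 3, 5, 10 and 11 and the CNT-T rats 1, 2, 12 and 13. The CNT-7 libraries held 30215063, 29856862, 28335965 and 27394995 counts in that order. The CNT-T libraries held 31495049, 33732981, 30296008 and 27195157. Levels are given as CPM, counts scaled to a library of 1000000 with the TMM factors of edgeR. CPM is not corrected for transcript length and therefore compares rats for a gene, not genes with each other. The level that 3 counts can show lay between 0.0887 and 0.109 CPM, a floor that covers counting error only.

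Scavenger receptors are a functional group and not a gene family: unrelated protein folds share the ability to bind polyanionic or oxidised ligands. Tissue macrophages use them to clear oxidised lipoproteins, apoptotic cells, haemoglobin complexes, bacteria and inhaled or injected particles without the help of antibodies. Several are shed from the membrane or secreted, so that transcript level and surface level can differ.

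A gene was called when edgeR's quasi-likelihood test gave an adjusted p-value (Benjamini-Hochberg) under 0.10 over all genes tested. Of the 10 receptors, 5 were called, and 27.9% of all 12124 genes tested were called. Cd163, Cd5l and Colec12 were lower after CNT-7, that is 3 of 10 where 14.0% of all genes were called lower. Olr1 and Scarb1 were higher, 2 of 10 where 13.9% of all genes were called higher. The rats of the groups did not overlap in 4 of the 10 receptors, and in 24.9% of all genes tested. The median log2 fold change (CNT-7 over CNT-T) of the receptors was -0.17, whereas the median of all genes tested was 0.01. Receptors called in each direction thus occurred within the group. All 10 passed the filter on low counts, but Cd5l passed it only through CNT-T, with at least 10 counts in 4 CNT-T rats and in 2 CNT-7 rats. Marco had at least 10 counts in 3 CNT-7 rats and in 1 CNT-T rat.

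**Figure D1:**
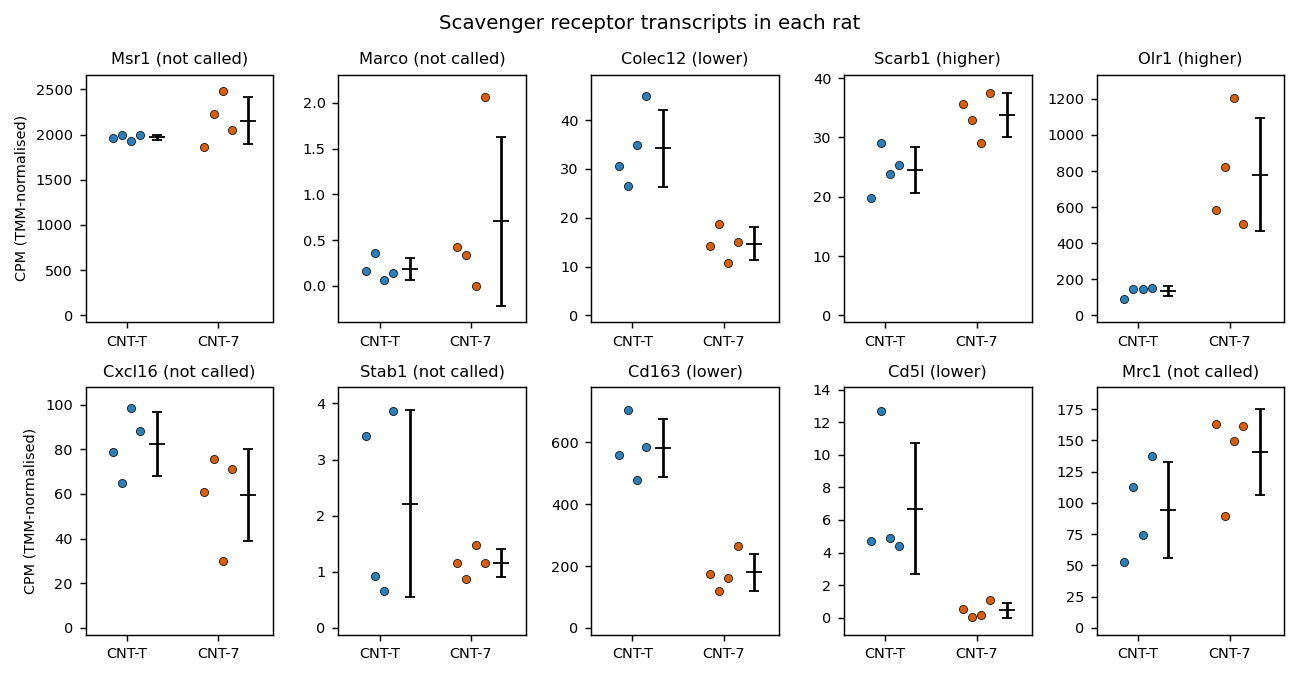
Level of each receptor transcript in CPM (y axis, linear, a separate scale per gene) in 4 CNT-T rats (blue) and 4 CNT-7 rats (orange). Each point is a rat, ordered by its number, and the bar beside the points gives the mean ± SD (n = 4). The groups do not overlap for Colec12, Olr1, Cd163 and Cd5l, and a single CNT-7 rat at 2.06 CPM stands above the others for Marco.

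Class A receptors carry a collagen-like stalk that forms trimers at the cell surface. Msr1 (ENSRNOG00000012779), the classical macrophage receptor for acetylated and oxidised low-density lipoprotein, was at 1867, 2224.5, 2483 and 2046 CPM in CNT-7 rats 3, 5, 10 and 11. In CNT-T rats 1, 2, 12 and 13 it was at 1964, 1991, 1934 and 1992 CPM. The CNT-T rats lay close together, and 3 of the CNT-7 rats were above all of them while rat 3 was below. The log2 fold change was 0.13 ± 0.10 (SE), with a 95% interval from -0.08 to 0.34 and an edgeR adjusted p of 0.387, and without CNT-7 rat 10 it was 0.06 (adjusted p = 0.717). Msr1 was thus abundant after both particles, and the interval does not reach a 2-fold change in either direction.

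Marco (ENSRNOG00000049303) has the same collagenous build and binds unopsonised bacteria and particles. It was nearly silent in these cells, with 13, 10, 0 and 57 counts in the CNT-7 rats and 5, 12, 2 and 4 in the CNT-T rats. CNT-7 rat 11 alone held 55.3% of all Marco counts, at 2.06 CPM, and CNT-7 rat 10 had none, which allows a level of up to 0.108 CPM. CNT-7 rat 3, at 0.427 CPM, was just above the highest CNT-T rat, at 0.355 CPM, and CNT-7 rat 5, at 0.335 CPM, was below it, so the groups overlapped. The log2 fold change of 1.90 had a 95% interval from -0.34 to 4.14 and was not called (edgeR adjusted p = 0.220). Without CNT-7 rat 11 it was 0.47 (adjusted p = 0.746), and without CNT-7 rat 10 it was 2.31 and was called (adjusted p = 0.0657).

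Colec12 (ENSRNOG00000016366) joins a collagen-like stalk to a C-type lectin domain that binds sugars, and it is best known from endothelial cells. It was at 14.3, 18.8, 10.7 and 14.9 CPM in the CNT-7 rats. In the CNT-T rats it was at 30.6, 26.5, 35.0 and 44.9 CPM. Every CNT-7 rat was below every CNT-T rat, with CNT-7 rat 5 and CNT-T rat 2 closest to each other. The level was 2.33-fold lower after CNT-7, a log2 fold change of -1.22 ± 0.20 (SE, edgeR adjusted p = 0.00276). Of all genes tested, 2.47% had a log2 fold change as low. In such bulk samples, fewer cells that carry a transcript and less of it per cell cannot be told apart. Among the class A receptors described here, 1 thus fell and 2 were not called.

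The class B receptor Scarb1 (ENSRNOG00000000981) exchanges cholesterol with high-density lipoprotein and also binds apoptotic cells. Its level was 35.7, 32.9, 29.0 and 37.4 CPM in the CNT-7 rats. The CNT-T rats were at 19.7, 29.1, 23.8 and 25.4 CPM. The groups overlapped by a single pair, since CNT-T rat 2 was slightly above CNT-7 rat 10. The rise was modest, 1.38-fold, with a log2 fold change of 0.46 ± 0.13 (SE, edgeR adjusted p = 0.0282), and 11.5% of all genes tested rose as much.

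Olr1 (ENSRNOG00000056219), also known as LOX-1, is a class E receptor, a C-type lectin-like protein that binds oxidised low-density lipoprotein and is induced by inflammatory stimuli. It was at 586, 822, 1204 and 509 CPM in the CNT-7 rats. In the CNT-T rats it was at 91.1, 144, 145 and 150.3 CPM. The lowest CNT-7 rat was far above the highest CNT-T rat. Within CNT-7 the spread was wide, with rat 10 highest, and within CNT-T rats 2, 12 and 13 lay together while rat 1 was lower. Olr1 was 5.88-fold higher after CNT-7, a log2 fold change of 2.56 ± 0.28 (SE) with a 95% interval from 1.93 to 3.18 (edgeR adjusted p = 0.000472). This was the largest called rise among the 10 receptors, and 1.23% of all genes tested rose as much.

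Class G holds Cxcl16 (ENSRNOG00000026647), a chemokine anchored in the membrane that binds phosphatidylserine and oxidised lipoproteins and, once cleaved, attracts lymphocytes that carry its receptor. It was at 60.8, 75.6, 29.9 and 71.1 CPM in the CNT-7 rats. The CNT-T rats were at 78.6, 64.7, 98.3 and 88.3 CPM. CNT-7 rat 10 was the lowest of the 8 rats, and CNT-7 rats 5 and 11 lay above CNT-T rat 2. The log2 fold change of -0.47 ± 0.25 (SE) was not called (edgeR adjusted p = 0.229, interval -1.04 to 0.10). Without CNT-7 rat 10 it was -0.25 (adjusted p = 0.271).

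Stab1 (ENSRNOG00000018434), of class H, is a large receptor of sinusoidal endothelium and of some tissue macrophages that takes up acetylated lipoproteins and extracellular matrix proteins. It was low in every rat, at 1.15, 0.871, 1.48 and 1.16 CPM in the CNT-7 rats. In the CNT-T rats it was at 3.42, 0.916, 0.659 and 3.87 CPM. CNT-T rats 1 and 13 were above all CNT-7 rats, rat 2 was between CNT-7 rats 5 and 3, and rat 12 was below all CNT-7 rats. The SD was 1.66 CPM in CNT-T and 0.249 CPM in CNT-7 (n = 4 each), and the log2 fold change of -0.92 ± 0.54 (SE) was not called (edgeR adjusted p = 0.269, interval -2.13 to 0.29). Without CNT-T rat 13 it was -0.52 (adjusted p = 0.571), and without CNT-T rat 12 it was -1.23 (adjusted p = 0.113).

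The next receptors are built from cysteine-rich scavenger receptor domains. Cd163 (ENSRNOG00000010253), of class I, takes up complexes of haemoglobin with haptoglobin and is a marker of resident tissue macrophages. It was at 174, 119.6, 162 and 264 CPM in the CNT-7 rats. In the CNT-T rats it was at 558, 705, 478 and 586 CPM. All CNT-T rats were well above the highest CNT-7 rat, which was rat 11. Cd163 was 3.24-fold lower after CNT-7, a log2 fold change of -1.69 ± 0.22 (SE) with a 95% interval from -2.19 to -1.20 (edgeR adjusted p = 0.00107). The CNT-7 mean was 179.8 ± 60.8 CPM and the CNT-T mean 582 ± 94.0 CPM (SD, n = 4). Of all genes tested, 0.800% fell as far.

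Cd5l (ENSRNOG00000023068), also named apoptosis inhibitor of macrophages, is a secreted protein of tissue macrophages that circulates bound to IgM. It had 16, 1, 5 and 30 counts in the CNT-7 rats, or 0.526, 0.0335, 0.181 and 1.09 CPM. The CNT-T rats had 145, 430, 149 and 123 counts, or 4.73, 12.7, 4.91 and 4.40 CPM. Every CNT-T rat was above the highest CNT-7 rat, and CNT-T rat 2 was far above the other CNT-T rats. In CNT-7 rat 5 the level was under the floor of 0.101 CPM. Cd5l was 14.7-fold lower after CNT-7, a log2 fold change of -3.87 ± 0.69 (SE, edgeR adjusted p = 0.00422). The interval was wide, from -5.41 to -2.34, and the CNT-7 rats together gave 52 counts. Without CNT-7 rat 11 the log2 fold change was -4.73, and without CNT-T rat 2 it was -3.36. Of all genes tested, 0.0825% fell as far.

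The mannose receptor Mrc1 (ENSRNOG00000018251) recognises mannose and fucose on microbes and on glycoproteins of the host, and is often read as a mark of alternatively activated macrophages. It was at 163, 89.4, 149 and 162 CPM in the CNT-7 rats. The CNT-T rats were at 52.4, 113, 74.6 and 138 CPM. All CNT-7 rats except rat 5 were above all CNT-T rats, while rat 5 was between CNT-T rats 12 and 2. The log2 fold change was 0.58 ± 0.29 (SE) and was not called (edgeR adjusted p = 0.203, interval -0.08 to 1.23). Without CNT-T rat 13 it was 0.81 and was called (adjusted p = 0.0856), and without CNT-T rat 1 it was 0.38 (adjusted p = 0.340). Mrc1 and Cd163, which are often used side by side as macrophage markers, thus had fitted changes of opposite sign in these rats, of which that of Cd163 alone was called.

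Within a group, no rat was at the same end for every receptor. CNT-7 rat 11 was the highest of its group for Cd163, Cd5l, Scarb1 and Marco and the lowest for Olr1. It was thus the CNT-7 rat nearest to CNT-T for Cd163, Cd5l and Olr1, and the farthest for Scarb1 and Marco. Its nearness was not particular to the receptors. Over all genes tested, its Pearson correlation with the CNT-T rats, on log2-scaled CPM, was 0.973 to 0.978. For the other CNT-7 rats it was 0.957 to 0.971. CNT-7 rat 10 was highest for Olr1, Msr1 and Stab1 and lowest for Colec12, Cxcl16, Scarb1 and Marco. CNT-7 rat 5 was lowest for Cd163, Cd5l, Mrc1 and Stab1 and highest for Colec12 and Cxcl16. Cd163 and Cd5l therefore had the same highest and the same lowest rat after CNT-7. After CNT-T, rat 2 was highest for Cd163, Cd5l, Scarb1 and Marco and lowest for Colec12 and Cxcl16. CNT-T rat 13 was highest for Colec12, Mrc1, Olr1, Msr1 and Stab1 and lowest for Cd5l. With 4 rats per group such orders are a description, and no correlation between receptors was computed.

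**Figure D2:**
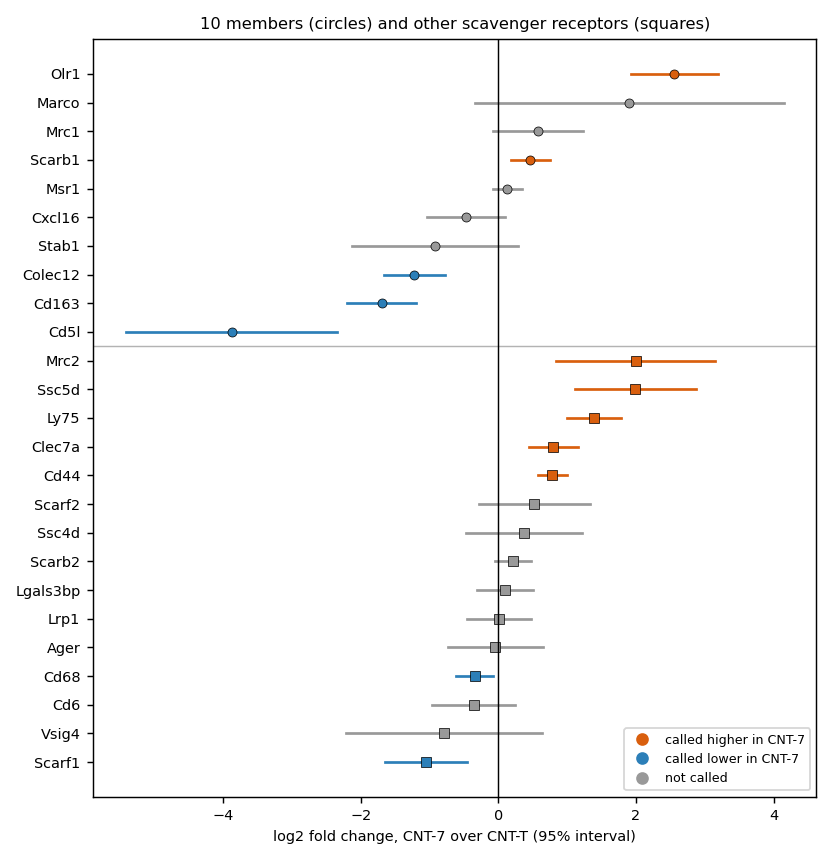
Log2 fold change between the groups (x axis, CNT-7 relative to CNT-T) with its 95% interval for the 10 receptors (circles) and for the 15 other scavenger receptors that were tested (squares), each sorted by size. Orange marks genes called higher, blue genes called lower and grey genes not called. Olr1 at 2.56 and Cd5l at -3.87 are the outermost called receptors, and the intervals of Marco and Stab1 are wide and include 0.

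Other genes of the same biology were taken from 5 wider lists. The list of other scavenger receptors named 27 genes, of which 24 were in the table and 15 passed the filter. Of these, 5 were called higher and 2 lower, where 13.9% and 14.0% of all genes tested were. Their median log2 fold change was 0.21. Cd44, a receptor for hyaluronan, was at 2518 ± 259 CPM after CNT-7 and 1463.5 ± 79.3 after CNT-T (SD, n = 4), a log2 fold change of 0.78 (edgeR adjusted p = 0.000703). The beta-glucan receptor Clec7a rose by 0.80 on that scale (adjusted p = 0.00716), and Ly75, an endocytic receptor related to Mrc1, rose by 1.39 (adjusted p = 0.000915). Ssc5d, a secreted protein built of the same cysteine-rich domains as Cd163 and Cd5l, rose by 1.99 (adjusted p = 0.00704), whereas those receptors fell. Scarf1, a receptor for acetylated lipoproteins and apoptotic cells, fell by 1.05 (adjusted p = 0.0213), as Colec12, Cd163 and Cd5l fell. Named after their values were seen were Mrc2, a relative of Mrc1 that takes up collagen, which rose by 1.99, and the lysosomal protein Cd68, which fell by 0.34 (adjusted p = 0.0715). Mrc2 was under 1 CPM on average and passed the filter only through CNT-7, with at least 10 counts in 4 CNT-7 rats and 1 CNT-T rat. The count of 2 lower became 1 without any of CNT-7 rats 3, 5 and 10 or CNT-T rats 1, 2 and 12. Scarf1 kept its call in each of these fits, so the call lost was that of Cd68.

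Cd163 belongs to the path by which macrophages take up haem and recycle its iron. Of 14 genes on that list 12 were tested, with 1 called higher, 3 lower (Cd163 among them) and a median log2 fold change of 0.02. Over all genes tested, 13.9% were called higher and 14.0% lower. Slc11a1, which moves iron out of the phagosome, was lower like Cd163, at 184 ± 28.9 CPM after CNT-7 and 421 ± 33.1 after CNT-T (SD, n = 4), a log2 fold change of -1.19 (edgeR adjusted p = 0.000331). Blvrb, which reduces biliverdin, had -0.23 (adjusted p = 0.0875), and Fth1, the heavy chain of the iron store ferritin, had 0.62 (adjusted p = 0.0744), with overlapping groups for both. Fth1 lost its call without CNT-7 rat 10 (0.38, adjusted p = 0.147) and without CNT-7 rat 5 or CNT-T rats 1, 2 or 12 (0.52 to 0.63), and without CNT-T rat 13 the list had 3 genes called higher. Hmox1, named after its values were seen, had 0.06 and was not called (edgeR adjusted p = 0.968). It was at 155 to 779 CPM in the CNT-7 rats. In CNT-T it was at 77.7 to 166 CPM in rats 1, 2 and 12 and at 1256 CPM in rat 13. Blvrb lost its call without CNT-7 rats 3, 5 or 10 or CNT-T rats 2, 12 or 13 (-0.25 to -0.18) and with no filter on low counts (adjusted p = 0.101).

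Cd163, Cxcl16 and Olr1 are among the receptors that can be cut from the membrane by proteases. Of 9 genes for such proteases and their partners 8 were tested, 3 were called higher and 0 lower by edgeR, with a median log2 fold change of 0.25. The shares over all genes tested were 13.9% called higher and 14.0% called lower. Adam10, which cleaves Cxcl16, rose by 0.37 (adjusted p = 0.00842), while Cxcl16 itself was not called. Adam8 rose by 2.08, from 11.1 ± 1.96 CPM after CNT-T to 46.9 ± 15.1 after CNT-7 (SD, n = 4, edgeR adjusted p = 0.000488). Adam9 had 0.46 (adjusted p = 0.0875) and lost its call without CNT-7 rat 10 (0.27, adjusted p = 0.168) and without CNT-7 rat 5 or CNT-T rats 1, 2 or 12 (0.36 to 0.50). The 5 tested genes that were not called were named after their values were seen. They were Adam17 with 0.13 (edgeR adjusted p = 0.396), Rhbdf1 with 0.58, Rhbdf2 with 0.08, Adam15 with -0.06 and Frmd8 with -0.004. Shedding of Cd163, Cxcl16 or Olr1 was not measured, and whether these transcripts bear on it was not tested.

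Scarb1, Olr1 and Msr1 bring lipoproteins or their lipids into the cell, and a further list held 16 genes of lipoprotein uptake and cholesterol efflux. Of 14 tested, 5 were called higher (Scarb1 among them) and 0 lower by edgeR, with a median log2 fold change of 0.18. For comparison, edgeR called 13.9% of all genes tested higher and 14.0% lower. Abcg1, which like Scarb1 passes cholesterol to high-density lipoprotein, was at 234 ± 21.8 CPM after CNT-7 and 116 ± 17.2 after CNT-T (SD, n = 4), a log2 fold change of 1.01 (edgeR adjusted p = 0.000632). Lipa, the acid lipase of the lysosome, rose by 0.34 (adjusted p = 0.0342). Vldlr, a lipoprotein receptor that passed the filter only through CNT-7 (at least 10 counts in 4 CNT-7 and 2 CNT-T rats), had 2.02 (adjusted p = 0.0514), and Plin2, the coat protein of lipid droplets, had 0.45 (adjusted p = 0.0803). Without CNT-7 rat 10 neither was called, at 1.57 for Vldlr (adjusted p = 0.128) and 0.26 for Plin2 (adjusted p = 0.120). Without CNT-T rats 1, 2 or 12 in turn the list had 3 genes called higher (Vldlr 1.74 to 1.84, Plin2 0.38 to 0.50), and Plin2 was also not called without CNT-7 rat 5 or CNT-T rat 13 (0.48 each). Without CNT-T rat 13 Vldlr had 2.97 (adjusted p = 0.00992), and without CNT-7 rat 3, 1 gene of the list was called lower.

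Of 13 tested transcription factors with a known part in the expression of scavenger receptors or in macrophage identity, 6 were called higher and 2 lower. Over all genes tested, 13.9% were called higher and 14.0% lower. The median log2 fold change of the 13 factors was 0.28. The 6 called higher include Pparg, Spi1 and Nr1h2, named after their values were seen. Spi1, the gene of the factor PU.1, had 0.37 (edgeR adjusted p = 0.0176). Nr1h2 had 0.28 (adjusted p = 0.0847), with overlapping groups. Pparg passed the filter only through CNT-7, with 120 counts in the CNT-7 rats and 9 in the CNT-T rats. Irf8, a factor of the monocyte and macrophage lineage, was at 24.3 ± 7.77 CPM after CNT-7 and 90.9 ± 21.6 after CNT-T (SD, n = 4). It fell by 1.90 on the log2 scale (edgeR adjusted p = 0.000723), beside the -1.69 of Cd163, and Maf, a factor of resident macrophages, fell by 0.44 (adjusted p = 0.0188). Among the factors called higher, as Olr1 was, were Fosl2, a subunit of AP-1, with 0.88 (adjusted p = 0.00716), Bhlhe40 with 0.51 (adjusted p = 0.0271) and Klf4 with 0.49 (adjusted p = 0.00674). The groups did not overlap in 7 of the 13 factors, and in 24.9% of all genes tested. The part of these factors in the receptor levels was not tested.

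The window from 250 bases before to 50 bases after the annotated start was taken from RefSeq (build GRCr8), in which 8 of the 10 receptors were matched. The counts were made on transcripts of the older build Rnor_6.0. Both strands were searched for 6 short motifs of factors that act in macrophages or of core promoters. GAGGAA, the core bound by PU.1, was in 7 of the 8 receptor windows (Cd5l, Colec12, Cxcl16, Marco, Mrc1, Olr1 and Stab1) and in 27.6% of all 33469 windows. TGANTCA, the AP-1 motif, was in the Olr1 window alone among the 8 and in 7.33% of all windows. TGCTGA, the hexamer bound by MAF factors, was in the windows of Cd5l and Stab1 and in 18.4% of all. AGGTCA, the hexamer bound by nuclear receptors, was in that of Olr1 and in 16.2% of all. The GC box GGGCGG was in the windows of Colec12 and Mrc1 and in 33.1% of all, and TATAAA was in that of Marco and in 14.2% of all. None of the 6 was in the Cd163 window, which says only that these letters are not there.

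The windows of the receptor that rose most and of the one that fell most among those called are printed below, 5′ to 3′ along the gene, with the motif letters in capitals. Olr1 lies on the minus strand at chr4:164634498-164634797. Its capitals are, in order, the nuclear receptor hexamer (first base at -147 from the annotated start), the PU.1 core on the opposite strand (-46) and the AP-1 motif (-30). Cd5l lies on the plus strand at chr2:175088665-175088964. Its capitals are the PU.1 core on the opposite strand (-129) and MAF hexamers on both strands (-117 and -109), which face each other across 2 bases. That arrangement, TGCTGANNTCAGCA, was searched after the hexamers had been seen and was in 4 of all 33469 windows (0.012%). A match is a description of the letters and not a measured site.
Olr1: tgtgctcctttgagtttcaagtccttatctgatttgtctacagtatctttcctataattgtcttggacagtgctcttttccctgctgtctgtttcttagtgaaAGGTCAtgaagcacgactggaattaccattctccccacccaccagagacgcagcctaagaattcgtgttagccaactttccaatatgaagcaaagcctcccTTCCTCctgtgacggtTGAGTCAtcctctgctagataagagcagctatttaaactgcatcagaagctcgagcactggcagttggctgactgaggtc
Cd5l: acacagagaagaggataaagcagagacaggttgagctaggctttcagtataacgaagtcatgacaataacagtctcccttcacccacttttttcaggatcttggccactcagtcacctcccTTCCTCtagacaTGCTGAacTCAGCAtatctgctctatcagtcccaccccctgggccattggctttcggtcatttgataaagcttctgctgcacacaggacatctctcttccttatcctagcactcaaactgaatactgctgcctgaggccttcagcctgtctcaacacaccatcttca

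The sort was checked against markers of macrophages and of other cells. All 9 macrophage markers were tested and well above the floor. Their summed level was 23263, 23278, 22534 and 16093 CPM in the CNT-7 rats. It was 35138, 26362, 29888 and 24681 CPM in the CNT-T rats, above every CNT-7 rat (exact permutation p = 0.0286, the smallest that 4 against 4 rats can give, two-sided). Adjusted over the 10 lists and the total counts by the Benjamini-Hochberg procedure, this p was 0.314. Lyz2 made up between 75.8% and 85.7% of the sum, and without it the CNT-7 rats still lay below, at 3364 to 3897 against 4152.5 to 5039 CPM. Of the 9 markers 5 were called lower, as Cd163, Cd5l and Colec12 were, and 1, Cd14, was called higher, as Olr1 and Scarb1 were. Over all genes tested, 14.0% were called lower and 13.9% higher. The 5 include Cd68, whose call was lost when some single rats were left out (above). The part of this shift in the receptor levels was not tested. The total counts did not separate the groups (exact permutation p = 0.286).

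Colec12 and Stab1 are also made by endothelial cells. The sum of 9 endothelial markers was 213, 217, 221 and 220.2 CPM in the CNT-7 rats. In the CNT-T rats it was 246, 247, 238 and 206 CPM, which overlapped with CNT-7 (exact permutation p = 0.143). Tie1 made up between 59.4% and 75.3% of it, whereas Cldn5 and Robo4 had no count in any rat. Without Tie1 the CNT-7 rats were lower, at 54.3 to 71.5 CPM against 76.2 to 100.3 CPM in CNT-T (exact permutation p = 0.0286). Nearly all of that remainder was Tek and Esam, with means of 19.1 and 41.9 CPM in CNT-7 and of 38.7 and 49.9 CPM in CNT-T. Of 4 markers tested, Tek alone was called and fell by 1.02 on the log2 scale, while Esam had -0.25, Tie1 0.10 and Cdh5 0.66 and were not called. The share called lower was 14.0% over all genes tested. Of the markers not tested, Kdr had 17 counts in the CNT-7 rats and 0 in the CNT-T rats, and Vwf had 15 and 7. The part of endothelial RNA in the Colec12 difference was not tested.

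Markers of other cells were summed in the same way, with the gene of highest mean over the 8 rats named for each list, and the part of such cells in the receptor levels was not tested. The mesothelial sum reached at most 1.24 CPM (Krt8 highest, Wt1 and Upk3b without a count, exact permutation p = 0.257), and the mast cell sum at most 2.21 CPM (Cpa3 highest, p = 0.714). The fibroblast sum was 0.722 to 1.71 CPM in CNT-7 and 0.163 to 0.857 CPM in CNT-T (exact permutation p = 0.0571). Pdgfra was its highest gene over the 8 rats, and without it the groups did not overlap, at 0.506 to 1.47 CPM in CNT-7 and 0.0591 to 0.462 CPM in CNT-T (exact permutation p = 0.0286). In CNT-7 rat 5 the B cell sum (Blk highest) reached 3.28 CPM and the T cell sum (Lck highest) 10.0 CPM, the highest of the 8 rats (exact permutation p = 0.257 and 0.971). Without Lck every CNT-7 rat was above every CNT-T rat in the T cell sum, at 0.821 to 5.43 CPM against 0.143 to 0.619 CPM (exact permutation p = 0.0286). Neutrophil markers, led by Csf3r and with no count of Mpo, were between 26.2 and 68.4 CPM (exact permutation p = 0.571). S100a8, the neutrophil marker called of 5 tested, had a log2 fold change of -1.46 (edgeR adjusted p = 0.0159) without overlap of the groups, the direction of Cd163, Cd5l and Colec12. Elane had -0.68, whereas S100a9 had 1.23, Cxcr2 1.26 and Csf3r 0.39, and none of these was called. The median of the 5 tested neutrophil markers was 0.39, so they had no common direction. Eosinophil markers reached 9.33 CPM in CNT-7 rat 3 through Ccr3 and at most 0.670 CPM elsewhere, with Epx and Prg3 without a count (exact permutation p = 0.286). Dendritic cell markers (Batf3 highest over the 8 rats, Zbtb46 in each CNT-T rat) were at 13.4 to 19.1 CPM in CNT-7 and 7.34 to 15.7 CPM in CNT-T (exact permutation p = 0.0857). Of their 4 tested genes Batf3, Clec9a and Ccr7 were called higher, the direction of Olr1 and Scarb1, but Ccr7 passed the filter only through CNT-7 (at least 10 counts in 4 CNT-7 rats and 0 CNT-T rats) and Clec9a had at least 10 counts in 3 CNT-T rats. Beside these called markers, 13.9% of all genes tested were called higher and 14.0% lower. No list gave an adjusted p under 0.314, and the sums without a top gene were not adjusted. The macrophage list was at the smallest exact permutation p that 4 against 4 rats can give, 0.0286. Over the 11 measures it was still adjusted to 0.314. The adjusted values therefore cannot show that marker levels were alike.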

How the data were processed

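RNA-seq of sorted peritoneal macrophages from 4 CNT-7 and 4 CNT-T rats was used, with groups and rat numbers taken from the labels and 0 columns left unused. The authors quantified reads with Salmon (version not given in the sources used here) against Ensembl rat transcripts of Rnor_6.0 and deposited estimated counts per gene, not normalised. These were already whole, so rounding changed nothing. Repeats of an earlier symbol numbered 83, none of them of a receptor described here, and 6820 genes had no count.

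All 23487 genes entered edgeR 4.0.16 in R 4.3.3 (limma 3.58.1) with TMM factors, filterByExpr defaults (minimum count 10, minimum total 15) and the quasi-likelihood test, adjusted over the 12124 genes kept by the Benjamini-Hochberg procedure and called under 0.10. Marker sums were compared by two-sided exact permutation over the 70 divisions of the rats. Of the wider lists, called genes with a mean of at least 1 CPM were named, at most 5 per list by size of change. Further genes of these lists were named after their values were seen. The receptors and lists were chosen with earlier results of these data known. Alternatives were upper-quartile factors, the Wald test of DESeq2 1.42.0, other filters and thresholds, the range of rat numbers as a block, each rat left out, and marker sums without their most abundant gene. Scripts were tested on simulated data. No 2 rats of a group were copies of each other, since their counts differed by a chi-square per degree of freedom of at least 31.6. Totals lay between 27195157 and 33732981 counts. Flow cytometry, cytokine and qRT-PCR measurements and untreated rats were not analysed here.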

Additional observations from a re-analysis of the deposited data

Results flagged for a closer look

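In the receptors and the 20 genes of the wider lists named by size of change, 60 groups of 4 rats were examined for a rat standing far apart. The measure was the ratio of gap to range (Dixon), where the gap is the distance to the nearest rat. Chance alone gives about 3 such groups, and 5 were found. Cd5l was highest in CNT-T rat 2, with 12.7 CPM, the remaining CNT-T rats having 4.40 to 4.91 CPM (ratio 0.939). Olr1 was lowest in CNT-T rat 1, at 91.1 CPM against 144 to 150.3 CPM (ratio 0.895). Adam9 was highest in CNT-7 rat 10, at 357 CPM against 221 to 238 CPM (ratio 0.877). Plin2 was highest in the same rat, at 279 CPM against 172 to 186 CPM (ratio 0.871). Vldlr was highest in CNT-T rat 13, at 1.36 CPM against 0.207 to 0.326 CPM (ratio 0.897).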

How the results depend on the processing

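For the 10 receptors, 126 fold changes under alternatives were computed, of which 124 kept their direction and side of the threshold and 0 reversed. The other 2 became called, Marco without CNT-7 rat 10 (adjusted p = 0.0657, range over its alternatives 0.0657 to 0.746) and Mrc1 without CNT-T rat 13 (0.0856, range 0.0856 to 0.377). A required 2-fold change left 1006 of the 3383 called genes and 1 receptor called higher in place of 2. With each rat left out, 2578 to 3515 genes were called, with 3 receptors lower and 2 to 3 higher. DESeq2 called 3633 genes, and the block on the range of rat numbers 3359, and neither changed a receptor's call. No paired analysis was possible because the groups share no rat number. The 20 genes named from the wider lists by size of change and the list counts were examined under alternatives chosen after seeing the data. Of the 259 fold changes of these genes, 230 kept their call and 29 lost it (Fth1, Blvrb, Adam9, Vldlr and Plin2), under the block Adam9 and Plin2 (adjusted p = 0.106 and 0.101). Genes named after their values were seen, such as Mrc2, Cd68, Pparg, Spi1 and Nr1h2, were not among the 20. The counts of other scavenger receptors called lower show that Cd68 also lost its call. At a 2-fold change the genes called higher went from 5 to 3 for other scavenger receptors, 1 to 0 for haem genes, 3 to 1 for proteases, 5 to 2 for lipoprotein genes and 6 to 1 for transcription factors, and those called lower from 2 to 1 for other scavenger receptors and for transcription factors and from 3 to 2 for haem genes. With adjusted p under 0.05, lipoprotein genes called higher went to 3, haem genes to 0, proteases to 2 and transcription factors to 5, and of those called lower, other scavenger receptors went to 1 and haem genes to 2. Without Csf3r the neutrophil sum turned lower in CNT-7, at 5.69 against 8.54 CPM (exact permutation p = 0.171). With at least 10 counts in every rat, Cd5l and Marco could not be tested, which left 2 receptors called lower, and Marco was also not tested without CNT-7 rat 3 or CNT-T rat 2. The cause of these shifts was not tested beyond the smaller number of rats or genes. Marco, Stab1 and Cd5l had 80, 134 and 52 counts in CNT-7, and whether more depth would move their values was not tested.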
